A study of Mus musculus with 6 samples.

Results

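Primary liver tumours were compared with the non-tumour liver of the same mice, in which the co-repressor KAP1 had been deleted from hepatocytes. The comparison uses 4 of the 6 libraries of the series, chosen by their labels: tumours 1 and 2 and KAP1-deleted livers 1 and 2, where replicate 1 of both tissues came from mouse D580 and replicate 2 from mouse D648. These mice carry TgAlbCreKap1lox, a Cre recombinase driven by the albumin promoter together with a floxed Kap1 gene. All mice of the series were killed at 35 weeks of age after 27 weeks of high-fat diet, so a tumour and its liver share the deletion, the diet, the age and the animal. The other 2 libraries are livers of mice that carry TgAlbCre alone and are called controls here. They entered the estimate of the spread and are given as a reference level. Each group has 2 libraries, and p-values measure only the spread between these libraries.

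Mature hepatocytes divide their work along the blood flow. Cells near the portal vein make urea and glucose and break down amino acids, while cells around the central vein make glutamine and carry out much of the drug and bile acid metabolism. Wnt proteins from endothelial cells of the central vein maintain the central programme through beta-catenin, which also switches on inhibitors of its own pathway such as Axin2, Nkd1 and Notum. Liver tumours of mice and humans often carry an active Wnt pathway, divide, and lose part of the hepatocyte programme.

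Trim28, which encodes KAP1, was at 5.22 and 4.59 CPM (reads of a gene scaled to library size with TMM, the trimmed mean of M values) in tumours 1 and 2, and their KAP1-deleted livers held 5.06 and 6.02. The control livers were at 32.5 and 35.9, above all 4 libraries of the TgAlbCreKap1lox mice. Tumour and KAP1-deleted liver overlapped in Trim28 (log2 fold change -0.18 ± 0.19 SE, adjusted p = 0.57 by edgeR). Albumin, the main secreted protein of hepatocytes, was at 18162 and 34887 CPM in the tumours and 53805 and 64523 in the livers (Alb, log2 fold change -1.16 ± 0.44, adjusted p = 0.13). The hepatocyte marker was therefore abundant in all 4 libraries.

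The libraries held 39723997 to 62178752 reads counted in genes. Reads that fell in no gene were 35.0% and 31.3% of all counted reads in the tumours, and 18.0% to 25.2% in the livers. The scaling factors of the tumours were 1.31 and 1.22, against 0.864 and 0.878 in the KAP1-deleted livers. KAP1-deleted liver 2 stood apart in genes of other cells. Ighm, an antibody heavy chain, was at 48.4 CPM there and at 3.75, 2.80 and 2.21 CPM in KAP1-deleted liver 1, tumour 1 and tumour 2. Ctrb1, a digestive enzyme of the exocrine pancreas, had 281 counts in KAP1-deleted liver 2 and 1, 0 and 5 counts in the other 3. Of the exocrine pancreas list 6 genes had enough reads to be tested, and these summed to 8.36 and 19.9 CPM in the livers and 32.6 and 267 in tumours 1 and 2, with no gene called and 3 higher with a mouse block. Most of the sum in tumour 2 was Pnliprp1, a relative of pancreatic lipase, at 21.6 and 205 CPM in the tumours and 0.0227 and 2.27 in the livers (adjusted p = 0.093, and 0.00284 with a mouse block). Tumour 2 was thus the highest library in the sum of these 6 genes. Most list members with too few reads to test had most of their reads in KAP1-deleted liver 2, as Ctrb1 did. Pnlip, pancreatic lipase, had 178 counts there and 6 in tumour 2. With no filter on low counts, 16 genes of the list were called lower in tumour and 3 higher. The part of these differences between libraries in the results was not tested, and counts without each library are given below.

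Of 17558 genes tested, 842 were higher in tumour than in KAP1-deleted liver and 1165 were lower, at an adjusted p under 0.05 by edgeR's quasi-likelihood test. These are 4.80% and 6.64% of the genes tested, 11.4% in all. All 2007 moved in the same direction in both mice, but they were picked by a test on these same libraries, which favours such agreement. Groups that do not overlap were more common, at 28.7% of genes with both tumours higher and 34.8% with both lower. The higher genes had a median log2 fold change of 1.91 and the lower genes one of -1.31, and 405 rose and 255 fell by over 4-fold. In terms of RNA, the lower genes held 19.6% of the scaled counts of the livers and 6.83% of those of the tumours, and the higher genes 1.55% and 8.54%. The counts depended on single libraries. They were 338 higher and 496 lower without KAP1-deleted liver 1, 295 and 345 without KAP1-deleted liver 2, 472 and 265 without tumour 1, and 520 and 664 without tumour 2. With a block for the mouse, a fit that leaves 1 residual degree of freedom, they were 1571 and 2318. Through the fits without 1 library, including those without a control, 240 higher and 171 lower genes kept their call. Scaling by library size alone gave 4317 higher and 520 lower, and shifted the median of all genes from -0.03 to 0.50, so directions below are relative to TMM. Below, a gene keeps its call without each library unless a p without a library is given.

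**Figure D1:**
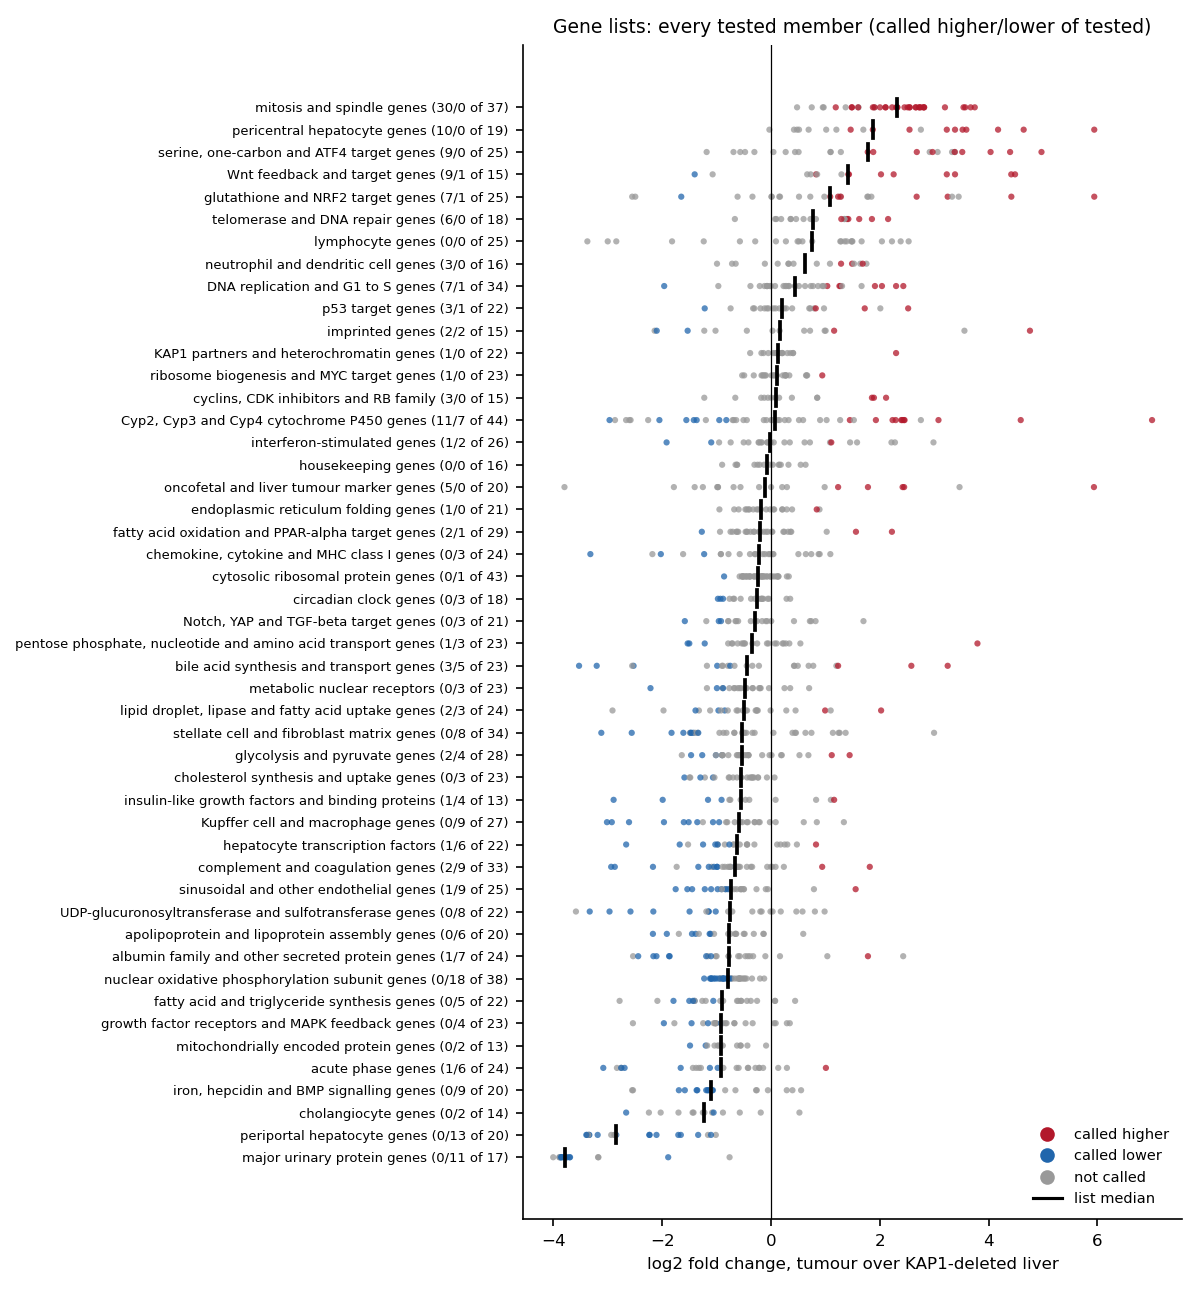
Log2 fold change of tumour over KAP1-deleted liver (horizontal axis) for every tested member of 48 gene lists with at least 10 tested members (1 line per list). Each dot is a gene, coloured by whether it passed the test, and the bar is the list's median. Mitosis genes lie to the right of 0, at a median of 2.32, and periportal and major urinary protein genes to the left, at -2.85 and -3.79. The medians of 14 lists, the housekeeping genes among them, change sign when libraries are scaled by size alone.

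Several genes below 1 CPM in both livers were far higher in both tumours. Hsd3b1, a steroid dehydrogenase of the adrenal and gonads, had 1 count in the 2 livers together and 785 in the 2 tumours, a depth-scaled ratio of 573 (95% exact interval 103 to 22671, counting error only). Col8a1, a short-chain collagen, was at 72.4 and 73.1 CPM in the tumours and 0.954 and 0.657 in the livers (log2 fold change 6.50 ± 0.24, adjusted p = 8.4e-05). Elovl7, a fatty acid elongase, was at 33.7 and 45.4 against 0.431 and 0.339 CPM (6.68 ± 0.32, adjusted p = 0.00021). Greb1, known as an oestrogen-responsive gene of breast cells, was at 23.1 and 12.3 against 0.0454 and 0.127 CPM (7.62 ± 0.55, adjusted p = 0.00072). Pkp1, a protein of desmosomes, was at 5.07 and 4.38 against 0.0681 and 0.0424 CPM (6.37 ± 0.40, adjusted p = 0.00039). Both tumours lay above both livers in each of these genes, but the rule by which the highest genes were picked required this. Akr1b7, an aldose reductase relative, and Dlgap2, a scaffold protein of synapses, also rose, by 7.04 ± 0.81 (adjusted p = 0.0032) and 6.88 ± 0.68 (adjusted p = 0.0019). Wnt11, a Wnt ligand, had 3 counts in the livers and 309 in the tumours, a ratio of 75.2 (95% interval 25.5 to 367). In all, 26 genes had at most 3 counts over both livers and at least 1 CPM on average in the tumours, and 15 of these were called. Of all genes tested 4.8% were called higher, but choosing genes by near-empty livers and a high tumour level favours calls. Some of the 26 that were not called had most of their reads in 1 tumour, such as Prss56 at 0.787 and 16.2 CPM in tumours 1 and 2. The limit of 3 counts was the same in both directions, though scaled depth was 72420917 and 52512011 reads in the tumours and 44033846 and 47199030 in the livers. The reverse, at most 3 counts over both tumours and at least 1 CPM on average in the livers, held for 2 genes. One is Lrp2, the endocytic receptor megalin, with 95 and 21 counts in KAP1-deleted livers 1 and 2 and 1 and 2 counts in the tumours, so the livers differ too and most of its reads are in 1 of them.

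Several enzymes and transporters of pericentral hepatocytes were among the genes with the largest gain in RNA. The 8 called genes with the largest rise in mean CPM were Cyp3a11, Cyp2a5, Glul, Slc1a2, Rnase4, Rgn, Akr1c6 and Gulo. Glul, glutamine synthetase, was at 5037 and 4599.9 CPM in the tumours against 303 and 535 in the livers (log2 fold change 3.52 ± 0.37, adjusted p = 0.0024). Slc1a2, a glutamate transporter, was at 4861 and 2895 against 197 and 233 CPM (4.18 ± 0.35, adjusted p = 0.0012). Cyp2a5, which oxidizes coumarin and nicotine, was at 8322 and 4584 against 686 and 841 CPM (3.08 ± 0.46, adjusted p = 0.0078), although only 45.0% of its 31-base words are found in no other gene. Gulo, the last enzyme of vitamin C synthesis, was at 1195 and 1084 against 63.1 and 140.4 CPM (3.48 ± 0.39, adjusted p = 0.0028), with control livers at 273 and 299. Rnase4, a secreted ribonuclease, was at 3633 and 3549.7 against 854 and 766 CPM (2.15 ± 0.36, adjusted p = 0.011, and 0.0603 without KAP1-deleted liver 2). Rgn, a calcium-binding protein and lactonase, was at 1787 and 2494 against 593 and 957 CPM (1.47 ± 0.35, adjusted p = 0.036), and Akr1c6, a steroid dehydrogenase, at 2568 and 2510.3 against 1180.5 and 1227 CPM (1.08 ± 0.24, adjusted p = 0.029). Without KAP1-deleted livers 1 and 2 and tumours 1 and 2 in turn, the adjusted p was 0.196, 0.0633, 0.0762 and 0.146 for Rgn and 0.203, 0.227, 0.0933 and 0.0752 for Akr1c6. Lect2, a hepatokine whose gene responds to beta-catenin, was at 356 and 585 against 64.1 and 88.6 CPM (2.62 ± 0.39, adjusted p = 0.0081). Of 19 tested pericentral genes, 10 rose and 0 fell, with a median of 1.87. Leaving out KAP1-deleted livers 1 and 2 and tumours 1 and 2 in turn gave 7, 8, 9 and 9 calls.

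Receptors and feedback inhibitors of the Wnt pathway rose with them. Lgr5, a receptor for R-spondins, was at 56.1 and 53.5 CPM in the tumours and 5.93 and 4.58 in the livers (log2 fold change 3.38 ± 0.20, adjusted p = 0.0003). Nkd1, an inhibitor of Dishevelled, was at 51.4 and 38.9 against 1.98 and 2.25 CPM (4.42 ± 0.23, adjusted p = 0.00025). Axin2, a scaffold of the complex that destroys beta-catenin, was at 35.1 and 22.3 against 2.75 and 3.35 CPM (3.23 ± 0.27, adjusted p = 0.0012). The ubiquitin ligases Rnf43 and Znrf3, which remove Wnt receptors from the cell surface, rose by 2.26 ± 0.19 (adjusted p = 0.0012) and 2.02 ± 0.23 (adjusted p = 0.0028). Notum, which inactivates Wnt proteins, rose by 1.42 ± 0.18 (adjusted p = 0.0042), and the transcription factor Sp5 by 4.49 ± 0.71 (adjusted p = 0.009). Of 15 tested genes of the Wnt list 9 rose, and 1 fell, the secreted glycoprotein Dkk3 (-1.40 ± 0.23, adjusted p = 0.011, 0.0526 without KAP1-deleted liver 1 and 0.0524 without tumour 1). Wnt2, a ligand made by sinusoidal endothelium, fell, from 6.59 and 7.22 CPM to 1.88 and 2.23 (-1.75 ± 0.24, adjusted p = 0.0055). Rspo3, an R-spondin of the same cells, was at 2.09 and 3.83 CPM in the tumours and 8.61 and 8.47 in the livers (-1.54 ± 0.30, adjusted p = 0.019, but 0.0513 without KAP1-deleted liver 2 and 0.0591 without tumour 1). In these tumours the ligand Wnt2 and the receptor Lgr5 moved in opposite directions.

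The periportal programme was lower throughout. All 20 tested periportal genes had a negative log2 fold change, with a median of -2.85, and 13 fell. Arg1, which releases urea, went from 1546 and 1122 CPM in the livers to 68.2 and 194 in the tumours (-3.35 ± 0.51, adjusted p = 0.0089). Pck1, which commits carbon to glucose, went from 1200.2 and 1373 to 75.8 and 179 CPM (-3.34 ± 0.46, adjusted p = 0.0056). Ass1, an enzyme of the urea cycle, fell by 2.10 ± 0.28 (adjusted p = 0.0049), Sdsl, a serine dehydratase relative, by 3.19 ± 0.45 (adjusted p = 0.0059) and Ftcd, a histidine-degrading enzyme, by 1.70 ± 0.24 (adjusted p = 0.0062). Cps1, the entry enzyme of the urea cycle, was at 7879 and 5870.5 against 705 and 1211 CPM (-2.84 ± 0.45, adjusted p = 0.009, 0.0591 without tumour 1). Bhmt, which makes methionine from betaine, lost much RNA, from 8492 and 7658 to 1934 and 1702 CPM (-2.15 ± 0.29, adjusted p = 0.0053). The list's median within mouse D580 was -3.32 and within mouse D648 -2.18. There were 8, 8, 9 and 16 calls without KAP1-deleted livers 1 and 2 and tumours 1 and 2.

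**Figure D2:**
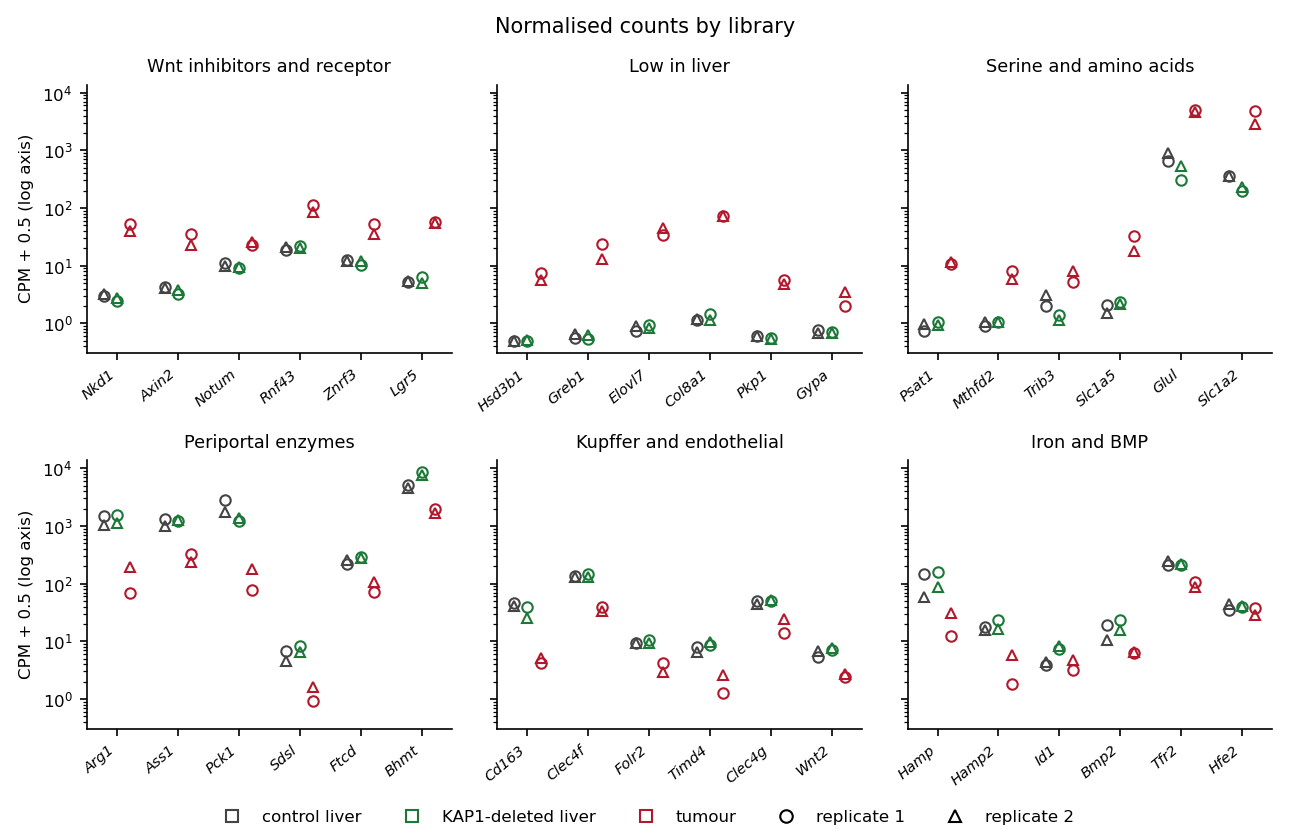
CPM plus 0.5 on a log axis in each of the 6 libraries (control liver, KAP1-deleted liver and tumour, 2 points each) for 36 genes in 6 panels. Lgr5 lies at 56.1 and 53.5 CPM in the tumours against 5.93 and 4.58 in KAP1-deleted livers, Col8a1 at 72.4 and 73.1 against 0.954 and 0.657, and Arg1 at 68.2 and 194 against 1546 and 1122.

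Genes of mitosis rose together. Of 37 tested mitosis and spindle genes, 30 rose and all 37 had both tumours above both livers, against 28.7% of all genes tested, with a median log2 fold change of 2.32. Leaving out KAP1-deleted livers 1 and 2 and tumours 1 and 2 in turn gave 18, 21, 23 and 19 calls. Mki67, a coat protein of mitotic chromosomes, was at 23.3 and 36.4 CPM in the tumours and 5.04 and 6.84 in the livers (2.33 ± 0.30, adjusted p = 0.0048). Top2a, the topoisomerase that untangles chromosomes, was at 17.9 and 27.5 against 3.07 and 4.66 CPM (2.55 ± 0.34, adjusted p = 0.0048). Cdk1, the kinase that starts mitosis, was at 3.48 and 4.65 against 0.477 and 0.720 CPM (2.75 ± 0.40, adjusted p = 0.0071), and its partner Ccnb1 at 3.76 and 5.88 against 0.250 and 0.551 CPM (3.57 ± 0.45, adjusted p = 0.0041). Prc1, which bundles the central spindle, was at 5.81 and 7.83 against 0.999 and 0.932 CPM (2.82 ± 0.31, adjusted p = 0.0025). Ttk, a spindle checkpoint kinase, was at 1.09 and 1.77 against 0.114 and 0.106 CPM (3.67 ± 0.47, adjusted p = 0.0043). Kif11, a motor that separates the spindle poles, and Hmmr, a spindle protein, rose by 2.10 ± 0.27 (adjusted p = 0.0043) and 2.73 ± 0.31 (adjusted p = 0.0028). Tumour 2 was above tumour 1 in each of these 8 genes. Levels were low: summed over the list they came to 34.4 and 40.3 CPM in the livers and 135 and 199 in the tumours.

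Genes of DNA replication and entry into S phase moved less. Of 34 tested, 7 rose and 1 fell (10 and 2 with a mouse block), with a median of 0.45. Without KAP1-deleted livers 1 and 2 and tumours 1 and 2 in turn, 1, 1, 1 and 4 were called higher. Uhrf1, which carries DNA methylation through replication, was at 2.07 and 1.49 CPM in the tumours and 0.273 and 0.445 in the livers (2.30 ± 0.41, adjusted p = 0.013, but 0.0743 without KAP1-deleted liver 1 and 0.0721 without tumour 1). Dtl, a ubiquitin ligase subunit that acts in S phase, was at 1.75 and 1.22 against 0.386 and 0.403 CPM (1.91 ± 0.40, adjusted p = 0.023, and 0.106, 0.124 and 0.113 without KAP1-deleted liver 1, KAP1-deleted liver 2 and tumour 1). Pcna, the sliding clamp of the polymerase, was at 21.3 and 25.4 CPM in the tumours and 25.7 and 25 in the livers. Mcm10, which loads replication factors, fell, from 23 and 27.2 to 5.76 and 7.12 CPM (-1.96 ± 0.20, adjusted p = 0.0019), with control livers at 47.1 and 53.8. The difference between the 2 lists was not tested.

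**Figure D3:**
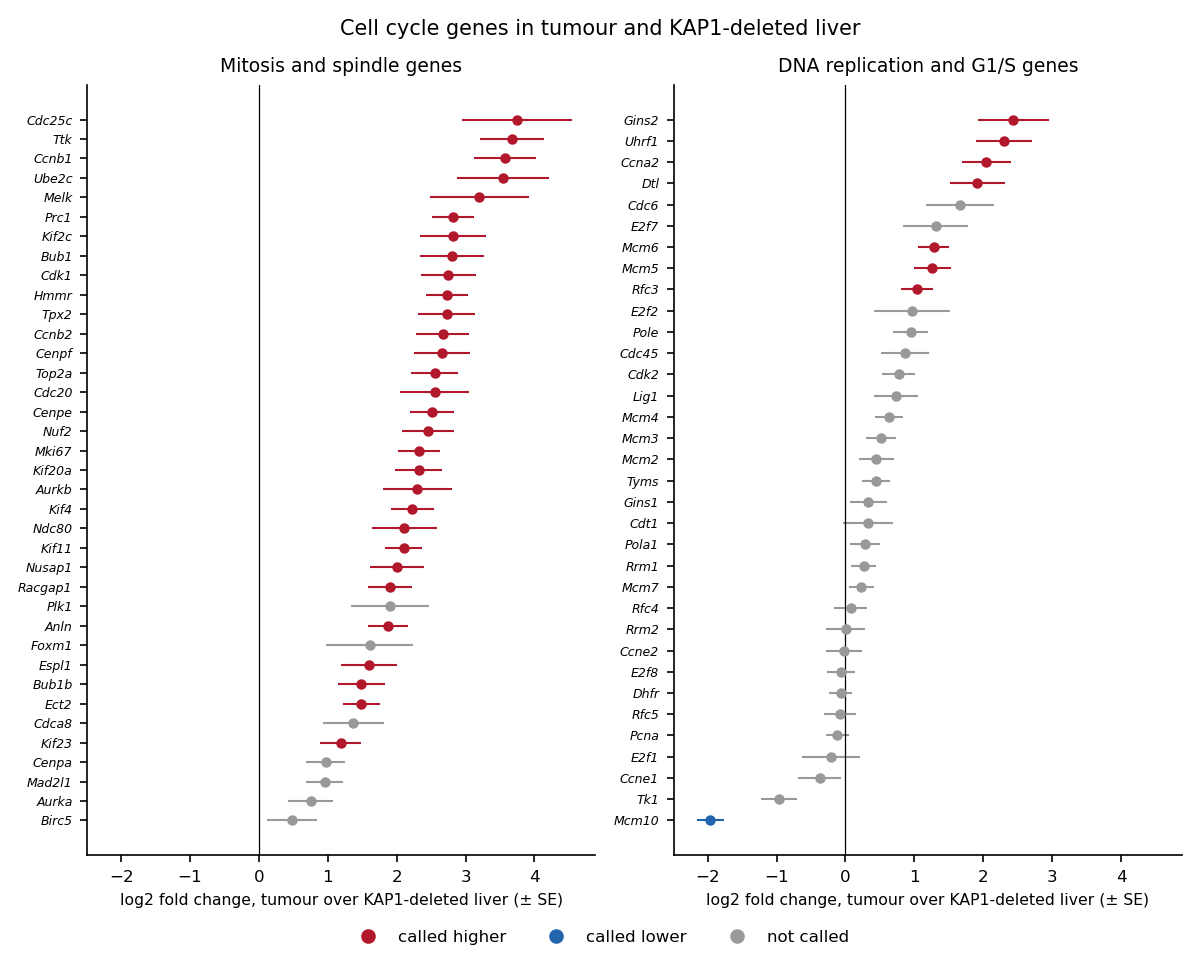
Log2 fold change of tumour over KAP1-deleted liver with its SE (horizontal bars) for each tested gene of mitosis (37) and of DNA replication and S-phase entry (34), edgeR on 6 libraries. All mitosis genes lie above 0 with a median of 2.32, and replication genes scatter around a median of 0.45 from -1.96 to 2.43.

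Promoters of many mitosis genes share 2 short elements, known from work on the cell cycle: CCAAT boxes, bound by NF-Y, and the cell cycle homology region TTTGAA, bound by the MuvB complex. The element GCGGGAA, bound by E2F proteins, is typical of replication genes. RefSeq promoters on GRCm38.p6, 250 bases before to 50 after the start, were matched by symbol for 26 of the 30 mitosis genes that rose. TTTGAA stood in 20 of the 26 (76.9%) on either strand, against 12.9% of the 11364 promoters of tested genes. CCAAT stood in 20 of 26 (76.9%) against 38.7%, and both in 17 of 26 (65.4%) against 5.31%. Over all 32 mitosis promoters matched, called or not, TTTGAA and CCAAT each stood in 24 (75%) and GCGGGAA in 0, against 7.86% of tested genes' promoters. Of 27 replication promoters, GCGGGAA stood in 12 (44.4%), TTTGAA in 3 (11.1%) and CCAAT in 18 (66.7%). A match describes these letters only. Which factors bind there was not measured, and such elements are known as a common feature of both gene classes. The sequences below, 150 bases before to 20 after the start and 5′ to 3′ in the gene's direction, show how the letters lie in mitosis genes (CCAAT and TTTGAA in capitals, or ATTGG and TTCAAA on the other strand) and in replication genes (CCAAT and GCGGGAA in capitals, or ATTGG and TTCCCGC). They come from Prc1 (chr7:80294301-80294470, plus strand), Hmmr (chr11:40733418-40733587, minus strand), Ttk (chr9:83834539-83834708, plus strand), Kif11 (chr19:37376232-37376401, plus strand), Ccnb1 (chr13:100786467-100786636, minus strand), Uhrf1 (chr17:56303187-56303356, plus strand) and Dtl (chr1:191575525-191575694, minus strand).
Prc1: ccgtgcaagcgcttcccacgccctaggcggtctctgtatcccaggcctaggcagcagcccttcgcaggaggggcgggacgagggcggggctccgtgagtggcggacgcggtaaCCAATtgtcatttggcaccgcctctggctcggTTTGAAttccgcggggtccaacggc
Hmmr: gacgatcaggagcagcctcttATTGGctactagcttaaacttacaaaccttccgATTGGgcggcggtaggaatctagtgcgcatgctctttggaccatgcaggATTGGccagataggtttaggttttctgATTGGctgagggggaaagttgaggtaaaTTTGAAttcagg
Ttk: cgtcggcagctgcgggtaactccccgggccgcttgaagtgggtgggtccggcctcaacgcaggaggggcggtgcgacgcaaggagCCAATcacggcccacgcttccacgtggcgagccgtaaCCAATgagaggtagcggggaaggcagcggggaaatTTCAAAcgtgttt
Kif11: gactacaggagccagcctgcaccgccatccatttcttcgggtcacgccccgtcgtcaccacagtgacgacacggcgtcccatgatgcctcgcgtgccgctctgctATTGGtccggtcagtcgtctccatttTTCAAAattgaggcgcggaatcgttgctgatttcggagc
Ccnb1: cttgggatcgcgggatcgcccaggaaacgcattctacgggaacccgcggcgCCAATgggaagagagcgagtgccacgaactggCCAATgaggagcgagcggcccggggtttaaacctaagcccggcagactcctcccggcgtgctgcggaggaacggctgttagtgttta
Uhrf1: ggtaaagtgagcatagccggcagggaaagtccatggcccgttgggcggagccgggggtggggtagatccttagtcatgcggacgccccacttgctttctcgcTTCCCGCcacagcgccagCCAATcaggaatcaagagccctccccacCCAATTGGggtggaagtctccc
Dtl: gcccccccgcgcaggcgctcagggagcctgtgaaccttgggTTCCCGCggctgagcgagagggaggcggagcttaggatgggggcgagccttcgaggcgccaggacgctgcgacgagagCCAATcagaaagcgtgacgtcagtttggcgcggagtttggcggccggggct
The 4 mitosis genes printed first hold TTTGAA close to the start with CCAAT upstream of it, while Ccnb1 holds CCAAT only within this stretch. The mitosis genes were picked by p alone, but Uhrf1 and Dtl among replication genes whose promoter holds GCGGGAA. Their GCGGGAA was thus fixed by the choice, and they hold no TTTGAA. Rfc3, picked the same way and not printed, holds neither CCAAT nor TTTGAA in this stretch.

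Around the cell cycle, Rbl1, a relative of the RB protein, rose from 2 and 1.86 to 5.56 and 8.46 CPM (log2 fold change 1.86 ± 0.27, adjusted p = 0.007). Ccnd1, the cyclin of G1, was at 23 and 22.1 CPM in the tumours and 16.8 and 8.22 in the livers (0.85 ± 0.32, adjusted p = 0.12, 0.0244 with a mouse block). Of 15 cyclins, CDK inhibitors and RB family genes 3 rose, and of 22 p53 targets 3 rose and 1 fell (5 cyclin list genes higher, and 8 p53 targets higher and 2 lower, with a mouse block). Without KAP1-deleted livers 1 and 2 and tumours 1 and 2 in turn, 3, 1, 2 and 3 of the first list and 1, 1, 2 and 1 of the second were called higher. The p53 target that fell was Perp, a desmosome protein, at 30.8 and 39.4 against 79.1 and 84.2 CPM (-1.22 ± 0.19, adjusted p = 0.0082, and 0.0577 without tumour 1). Among the p53 targets Gtse1, which acts in G2 and mitosis, rose from 0.522 and 0.466 to 2.64 and 3.07 CPM (2.52 ± 0.39, adjusted p = 0.0085). Of 18 telomerase and DNA repair genes 6 rose and 0 fell (9 and 1 with a mouse block), with a median of 0.78, but 1, 0, 0 and 3 were called without KAP1-deleted livers 1 and 2 and tumours 1 and 2.

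Markers of the fetal liver and of liver cancer moved unevenly. Of 20 tested, 5 rose and 0 fell (5 and 3 with a mouse block, and 2, 3, 4 and 3 higher without KAP1-deleted livers 1 and 2 and tumours 1 and 2), and the list's median was -0.11 (0.42 with scaling by library size alone). Afp, the fetal counterpart of albumin, rose from 4.18 and 2.61 to 10.1 and 13.3 CPM (1.78 ± 0.28, adjusted p = 0.0092), a low level for this gene beside Alb. Golm1, a Golgi membrane protein used as a marker of liver cancer, rose from 3.82 and 4.49 to 18.8 and 26.6 CPM (2.45 ± 0.27, adjusted p = 0.0026). Gpc3, a cell surface proteoglycan, was at 19.1 and 37.4 against 0.318 and 0.593 CPM (5.94 ± 0.69, adjusted p = 0.006, but 0.0935 and 0.0983 without KAP1-deleted livers 1 and 2). Igf2, the fetal growth factor, had 0 and 4 counts in the tumours and 6 and 10 in the livers and was not tested. Igf1, the growth factor that the adult liver secretes, was at 40.7 and 148 CPM in the tumours against 798 and 601 (-2.89 ± 0.62, adjusted p = 0.034). It did not pass without either KAP1-deleted liver (0.194 and 0.188), without either control (0.112 and 0.111) or with a mouse block (0.122).

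The imprinted cluster of Igf2r on chromosome 17 was higher in both tumours. Airn, a long noncoding RNA that runs antisense to Igf2r, rose from 0.954 and 0.530 to 25 and 15.2 CPM (log2 fold change 4.76 ± 0.41, adjusted p = 0.0012). Slc22a3, an organic cation transporter that Airn silences on one parental copy in the placenta, rose from 2.75 and 3.37 to 47.9 and 25.9 CPM (3.59 ± 0.34, adjusted p = 0.0016). Igf2r, which takes up IGF2, was at 171 and 151 CPM in the tumours and 64.5 and 79.5 in the livers (1.16 ± 0.25, adjusted p = 0.026, and 0.124, 0.0665, 0.123 and 0.0757 without KAP1-deleted liver 1, KAP1-deleted liver 2, tumour 1 and tumour 2). The strand setting of the counting is not given in these sources, so reads of Airn and Igf2r cannot be told apart with certainty. Of the 15 imprinted genes tested, 2 rose and 2 fell (1, 1, 2 and 1 higher and 1, 0, 0 and 2 lower without KAP1-deleted livers 1 and 2 and tumours 1 and 2). Meg3, a maternally expressed noncoding RNA, was at 0.166 and 16.1 CPM in tumours 1 and 2 and did not pass (adjusted p = 0.29).

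Some enzymes that make serine and one-carbon units, and other targets of the stress factor ATF4, rose. Of 25 tested, 9 rose and 0 fell (10 and 2 with a mouse block, and 2 lower without either control), with a median of 1.78. Leaving out KAP1-deleted livers 1 and 2 and tumours 1 and 2 in turn gave 4, 4, 11 and 6 higher. The 9 genes that rose were each under 3 CPM in both livers. The summed level of the list, in which Cth, an enzyme of cysteine synthesis, is the largest part, was 790 and 651 CPM in the tumours and 1068 and 991 in the livers. Psat1, an enzyme of serine synthesis, went from 0.568 and 0.445 CPM in the livers to 10.4 and 11 in the tumours (4.40 ± 0.33, adjusted p = 0.00091). Mthfd2, a mitochondrial folate enzyme usually low in adult tissue, went from 0.545 and 0.572 to 7.44 and 5.39 CPM (3.52 ± 0.31, adjusted p = 0.0013). Trib3, a pseudokinase induced by stress, rose by 2.97 ± 0.39 (adjusted p = 0.0049). Phgdh, the first enzyme of serine synthesis, was at 1.13 and 4.74 against 0.159 and 0.530 CPM and did not pass (adjusted p = 0.061, 5.28e-05 with a mouse block). The 2 tumours were less alike in the stress factors: Ddit3 was at 9.85 and 44.5 CPM in tumours 1 and 2 against 2.57 and 2.63 in the livers (adjusted p = 0.067). Among amino acid transporters, Slc1a5, a carrier of glutamine, went from 1.88 and 1.69 to 32.0 and 17.8 CPM (3.80 ± 0.35, adjusted p = 0.0013), and Slc1a4, of the same family, from 0.704 and 0.784 to 16.4 and 21.0 CPM (4.65 ± 0.40, adjusted p = 0.0012). Slc43a1, a carrier of branched-chain amino acids, fell from 3.84 and 3.79 to 1.45 and 1.24 CPM (-1.50 ± 0.24, adjusted p = 0.0095).

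Among genes of detoxification, of 44 tested cytochrome P450 genes of the Cyp2, Cyp3 and Cyp4 families, 11 rose and 7 fell (16 and 12 with a mouse block), with a median of 0.07. Without KAP1-deleted livers 1 and 2 and tumours 1 and 2 in turn, 6, 9, 7 and 11 were called higher and 2, 2, 1 and 4 lower. Cyp2c38 rose from 96.6 and 83.8 to 575 and 414 CPM (2.46 ± 0.25, adjusted p = 0.002) and Cyp4a12a, a male-biased fatty acid hydroxylase, fell from 156 and 177 to 29.4 and 51.2 CPM (-2.05 ± 0.27, adjusted p = 0.005). Cyp3a11, a major enzyme of drug oxidation, gained the most RNA, from 1815 and 2672 to 11597 and 9539 CPM (2.24 ± 0.41, adjusted p = 0.015, and 0.0844 without KAP1-deleted liver 1 and 0.0677 without tumour 1). Cyp2c55 was at 45.7 and 163 CPM in the tumours and 0.636 and 0.975 in the livers (7.01 ± 0.93, adjusted p = 0.014, but 0.0585 to 0.253 without either control or either KAP1-deleted liver). Many of these genes share sequence, and reads may be split between them. Among glutathione and NRF2 target genes 7 of 25 rose and 1 fell (9 and 3 with a mouse block). The glutathione transferase Gstm3 was at 178 and 259 CPM against 2.25 and 4.83 (5.94 ± 0.81, adjusted p = 0.014, but 0.139 and 0.150 without KAP1-deleted livers 1 and 2), and 0 rises of this list were called without either of those livers. Ugdh, which makes UDP-glucuronic acid, fell from 122 and 134 to 42.8 and 38.8 CPM (-1.65 ± 0.21, adjusted p = 0.0042). Of 22 enzymes that attach glucuronic acid or sulfate, 8 fell and 0 rose, but 3 were higher and 10 lower with a mouse block, and the DESeq2 test also called 3 higher. There were 4, 3, 3 and 6 lower without KAP1-deleted livers 1 and 2 and tumours 1 and 2.

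Genes of bile acid handling moved both ways, with 3 of 23 higher, 5 lower (10 with a mouse block) and a median of -0.44 that turns positive with scaling by library size alone. Without KAP1-deleted livers 1 and 2 and tumours 1 and 2 in turn, 1, 1, 2 and 3 were called higher and 1, 0, 3 and 4 lower. Cyp8b1, which sets the share of cholic acid, was at 11.3 and 32.9 CPM in the tumours and 259.6 and 249 in the livers (-3.53 ± 0.52, adjusted p = 0.01, but 0.0719 and 0.0862 without KAP1-deleted livers 1 and 2). Slc10a1, the importer of bile acids from blood, was at 17.7 and 63.1 against 408 and 335 CPM (-3.20 ± 0.57, adjusted p = 0.02, but 0.137 and 0.150 without KAP1-deleted livers 1 and 2, 0.105 and 0.107 without controls 1 and 2 and 0.121 with a mouse block). Slco1a4, an importer of organic anions, rose from 64.2 and 101 to 600.4 and 388 CPM (2.58 ± 0.36, adjusted p = 0.0056). Cyp7a1, the rate-limiting enzyme of bile acid synthesis, was at 952 and 600.3 CPM in the tumours and 437 and 238 in the livers (adjusted p = 0.24, 0.0038 with a mouse block).

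Subunits of the respiratory chain were lower, by small amounts. All 38 nuclear genes of oxidative phosphorylation had a negative log2 fold change, with a median of -0.79, and 18 fell. Without KAP1-deleted livers 1 and 2 and tumours 1 and 2 in turn 6, 3, 0 and 3 were called, 1 with scaling by library size alone and 27 with a mouse block. Cox6c, a subunit of cytochrome oxidase, was at 94.2 and 104 CPM in the tumours and 251 and 214 in the livers (-1.23 ± 0.19, adjusted p = 0.0088, but 0.0652 without tumour 1). Ndufa5, of complex I, was at 15.4 and 17.7 against 34.5 and 33.9 CPM (-1.05 ± 0.16, adjusted p = 0.0085, but 0.0601 without tumour 1). Of the 13 mitochondrially encoded protein genes 2 fell (4 with a mouse block, and 0, 0, 0 and 1 without KAP1-deleted livers 1 and 2 and tumours 1 and 2). In lipid metabolism Acly, which supplies acetyl-CoA for fatty acid synthesis, fell from 95.7 and 88.6 to 28.4 and 36.7 CPM (-1.50 ± 0.20, adjusted p = 0.0053). Lpl, a lipase that adult hepatocytes hardly make, rose from 22.4 and 16.7 to 76.6 and 82.8 CPM (2.03 ± 0.19, adjusted p = 0.0017). Pdk4, which shuts pyruvate out of the mitochondria, rose from 14.8 and 18.0 to 91.3 and 61.7 CPM (2.22 ± 0.25, adjusted p = 0.0028). Tm7sf2, of cholesterol synthesis, fell from 29.9 and 26.0 to 10.2 and 8.36 CPM (-1.59 ± 0.18, adjusted p = 0.0028).

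The largest loss of RNA was in the major urinary proteins, pheromone carriers that the mouse liver secretes. Their summed level was 95737 and 72275 CPM in the livers and 3681 and 11293 in the tumours, and all 17 tested genes were below 0, with a median of -3.79. Of the 17, 11 passed, but 0, 0, 1 and 16 were called without KAP1-deleted livers 1 and 2 and tumours 1 and 2. Mup10 was at 328 and 1339 CPM in the tumours against 12223 and 9343 (-3.69 ± 0.76, adjusted p = 0.026, and 0.106, 0.0987 and 0.0622 without KAP1-deleted liver 1, KAP1-deleted liver 2 and tumour 1). These genes are near-identical copies, so values of single members are uncertain and the sum is the safer measure. Of 24 secreted protein genes 1 rose and 7 fell (2 and 10 with a mouse block, and 4, 3, 2 and 5 lower without KAP1-deleted livers 1 and 2 and tumours 1 and 2). Serpina1c, an antitrypsin copy, was at 391 and 669.6 against 2082 and 2477 CPM (-2.10 ± 0.32, adjusted p = 0.0082, with 14.2% of its 31-base words found in no other gene). Of 33 complement and coagulation genes 2 rose and 9 fell (1, 0, 3 and 6 lower without the same libraries and 16 with a mouse block). Apoc3, an apolipoprotein of triglyceride-rich particles, was at 123 and 168 against 478 and 620 CPM (-1.91 ± 0.28, adjusted p = 0.0073, and 0.0548 without tumour 1).

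Transcription factors of hepatocytes were lower in part, with 6 of 22 lower and 1 higher (3, 1, 0 and 4 lower without KAP1-deleted livers 1 and 2 and tumours 1 and 2, and 10 with a mouse block). Cebpa, which restrains hepatocyte division, was at 44.9 and 50.1 CPM in the tumours and 138 and 166 in the livers (-1.68 ± 0.23, adjusted p = 0.0059, and 0.0529 without tumour 1). Hnf4a, the main factor of hepatocyte identity, was at 188 and 204 against 300 and 406 CPM and did not pass (-0.85 ± 0.28, adjusted p = 0.086, 0.0201 with a mouse block). With scaling by library size alone, 5 of the 22 factors were higher and 2 lower. The list's median was then -0.09, against -0.63 with TMM. Esr1, the oestrogen receptor, was at 11 and 12.6 against 73.0 and 36.3 CPM (-2.21 ± 0.36, adjusted p = 0.011, and 0.0733 without tumour 1), while Greb1 rose as given above. Fgfr2, a receptor for fibroblast growth factors, fell from 30 and 30.9 to 5.21 and 10.4 CPM (-1.97 ± 0.31, adjusted p = 0.0095).

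Of 20 genes of iron handling and of the BMP pathway that controls hepcidin, 9 fell and 0 rose, with a median of -1.10 (10 lower and 1 higher with a mouse block, and 6, 2, 3 and 6 lower without KAP1-deleted livers 1 and 2 and tumours 1 and 2). Smad6, a feedback inhibitor of BMP signalling, was at 1.10 and 1.05 CPM in the tumours and 3.16 and 3.31 in the livers (-1.58 ± 0.25, adjusted p = 0.0096, and 0.0573 without KAP1-deleted liver 2). Bmp2, a ligand made by endothelial cells, was at 5.69 and 6.09 against 22.7 and 15.4 CPM (-1.69 ± 0.32, adjusted p = 0.016, and 0.0998 and 0.0724 without tumours 1 and 2). Slc40a1, the iron exporter ferroportin, was at 82.0 and 116 against 282 and 224 CPM (-1.35 ± 0.23, adjusted p = 0.012, and 0.0731 without tumour 1). Hamp, hepcidin itself, was at 11.9 and 30.9 against 161 and 87.3 CPM, with no overlap, and did not pass (-2.54 ± 0.69, adjusted p = 0.08). Bmp6, the ligand that reports iron stores, was at 2.20 and 1.66 against 2.04 and 1.97 CPM.

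Some markers of Kupffer, endothelial and stellate cells fell, while most members of these lists did not pass the test. In bulk tissue, fewer cells of a type and less RNA per cell cannot be told apart. Of 27 Kupffer cell and macrophage genes 9 fell (6, 6, 5 and 9 without KAP1-deleted livers 1 and 2 and tumours 1 and 2, and 11 lower and 1 higher with a mouse block), and their summed level was 1156 and 1119 CPM in the livers and 482 and 696 in the tumours. Cd163, a scavenger receptor of resident macrophages, went from 39.0 and 24.9 to 3.70 and 4.72 CPM (-2.93 ± 0.26, adjusted p = 0.0013). Clec4f, a lectin of Kupffer cells, went from 149 and 130 to 38.5 and 33.0 CPM (-1.97 ± 0.18, adjusted p = 0.0015), and Timd4, a receptor of resident Kupffer cells, from 8.20 and 9.28 to 0.787 and 2.11 CPM (-2.61 ± 0.42, adjusted p = 0.01). Of 25 endothelial genes 9 fell (4, 3, 3 and 4 without the same libraries and 14 with a mouse block) and 1 rose, and their sum was 675 and 669.8 CPM in the livers and 419 and 429.5 in the tumours. Clec4g, a lectin of sinusoidal endothelium, fell from 49.3 and 52.0 to 13.7 and 23.5 CPM (-1.45 ± 0.26, adjusted p = 0.013). The 1 gene that rose was Cd34, an endothelial marker that sinusoids of normal liver show little of, at 7.40 and 5.20 against 1.93 and 2.35 CPM (1.56 ± 0.27, adjusted p = 0.012, and 0.0774, 0.0508 and 0.0622 without KAP1-deleted liver 1, KAP1-deleted liver 2 and tumour 1).

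Of 34 stellate cell and matrix genes 8 fell (5, 2, 2 and 14 without KAP1-deleted livers 1 and 2 and tumours 1 and 2, and 13 with a mouse block, which also calls 5 higher). They include Ecm1, an extracellular matrix protein, from 18.8 and 27.4 to 2.97 and 4.89 CPM (-2.56 ± 0.29, adjusted p = 0.0028), and Rgs5, a pericyte gene, from 66.1 and 64.8 to 18.5 and 24.4 CPM (-1.61 ± 0.20, adjusted p = 0.0042). The list was mixed, with 23 of the 34 genes below 0 and 11 above. Both tumours lay below both livers in 19 genes and above both in 6. The list's median was -0.52, and -0.01 with scaling by library size alone. Cxcl12, a chemokine of stromal and endothelial cells, fell from 122 and 114 to 26.7 and 31.4 CPM (-2.02 ± 0.20, adjusted p = 0.0019). No lymphocyte gene of 25 passed edgeR's test at an adjusted p under 0.05. With an unadjusted p under 0.05 there were 10, DESeq2 called 5, and edgeR with a mouse block called 7 higher. Summed, they were at 20.03 CPM in KAP1-deleted liver 1, 119 in KAP1-deleted liver 2, and 18.6 and 26.0 in the tumours. Genes of dendritic cells and neutrophils went the other way, with 3 of 16 higher and 0 lower (0, 0, 2 and 0 without the same libraries, and 7 higher and 1 lower with a mouse block) and a sum of 98.6 and 107 CPM in the livers and 178 and 375 in the tumours. Ciita, which switches on MHC class II, was at 4.21 and 8.55 CPM in the tumours against 2.09 and 1.86 (1.69 ± 0.36, adjusted p = 0.026, and 0.0761, 0.125 and 0.0942 without KAP1-deleted liver 1, KAP1-deleted liver 2 and tumour 2). The MHC class II gene H2-Ab1 was at 22.1 and 36.7 against 12.1 and 11.9 CPM (1.29 ± 0.34, adjusted p = 0.048, and 0.192, 0.247, 0.0637 and 0.212 without KAP1-deleted liver 1, KAP1-deleted liver 2, tumour 1 and tumour 2). With Xcr1, these were the 3 genes called higher in the dendritic cell and neutrophil list, and none of the 3 is a neutrophil gene. The neutrophil genes Mpo, Elane, Ngp, Camp and Ltf had too few reads to be tested. The part that the cell type markers have in the lists above was not tested.

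The 2 mice were alike in most genes and far apart in a few. Of 9198 genes with a mean of at least 5 CPM over the 4 libraries, the tumour-to-liver ratios of the mice differed by over 1 on the log2 scale in 379, by over 2 in 75 and by over 3 in 12. Fam83a, which acts in growth factor signalling, was at 24.3 CPM in tumour 1 and 0.171 in tumour 2, with livers at 0.545 and 0.869. Slc39a11, a zinc transporter, was at 88.9 and 16.6 CPM in tumours 1 and 2, with livers at 10.9 and 15.5. Aldh1a2, which makes retinoic acid, was high in the other tumour, at 0.621 and 23.3 CPM, with livers at 0.0681 and 0.106 (adjusted p = 0.10, 0.0259 with a mouse block). Gsdmc, a gasdermin, had no count in either liver and 5.07 and 70.9 CPM in tumours 1 and 2, at least 995-fold higher over both tumours (against 3 counts over the livers). It did not pass the test (adjusted p = 0.077, 1.57e-08 with a mouse block). With no count in either liver, the block fits each tumour's own level, so its p does not measure the gap between the tumours. Other differences between mice came from the livers: Gm10800, a predicted gene, was at 5.75 CPM in KAP1-deleted liver 1, 1074 in KAP1-deleted liver 2, and 6.17 and 10.1 in the tumours. None of these differences has a replicate within a mouse.

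**Figure D4:**
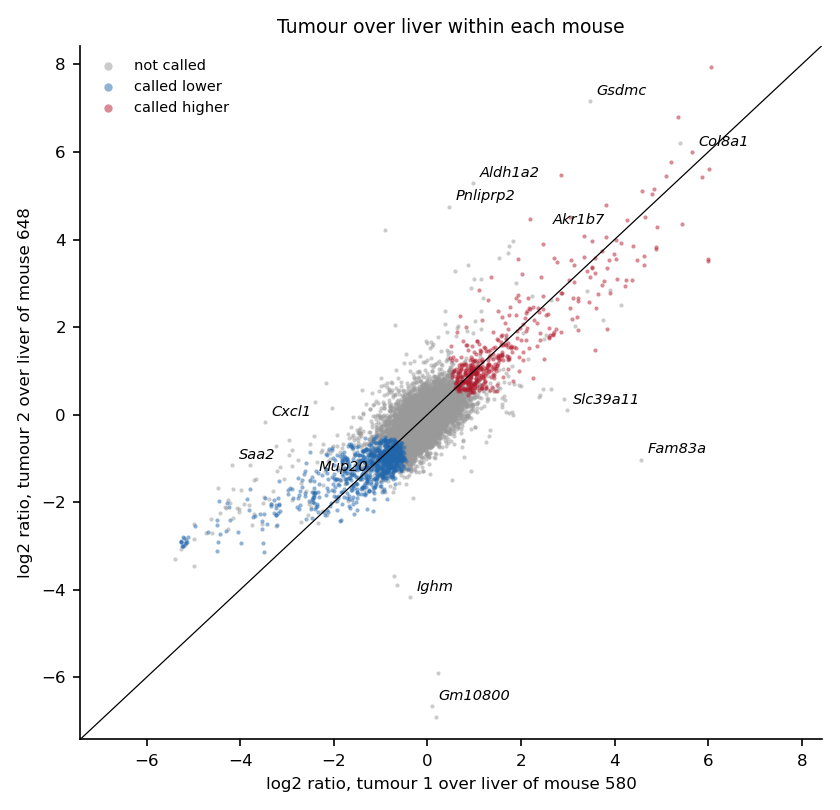
Within-mouse log2 ratio of tumour over KAP1-deleted liver (0.5 CPM added) in mouse D580 (horizontal) and mouse D648 (vertical) for the 9198 genes with a mean of at least 5 CPM over the 4 libraries. Each dot is a gene, coloured by whether it passed the test. Fam83a and Slc39a11 lie below the diagonal, Aldh1a2 and Gsdmc above it, Gm10800 and Ighm far below it, and Col8a1 close to it.

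Genes on chromosome 4 were lower than others by a small margin in both mice. Of 1157 tested genes on it, 141 fell (12.2%, against 6.42% on other chromosomes) and 34 rose (2.94%), and the median log2 fold change was -0.24, or -0.23 in mouse D580 and -0.16 in mouse D648. Without the major urinary protein genes and predicted genes, 111 of 917 fell (12.1%) and 71.4% were below 0, against 52% of all tested genes on other chromosomes. Without any 1 of the KAP1-deleted livers or tumours, fewer genes were called lower, on chromosome 4 and elsewhere. The share called lower outside those genes was then nearer to that of other chromosomes, and almost equal to it without KAP1-deleted liver 2. Without KAP1-deleted livers 1 and 2 and tumours 1 and 2 in turn, the median of chromosome 4 was -0.23, -0.26, -0.23 and -0.30. On other chromosomes it was -0.01, -0.04, -0.05 and -0.05. With scaling by library size alone the median turned positive, at 0.29 against 0.505 on other chromosomes. In gene order the lowest stretch without major urinary protein genes ran from Ubap1 to Tpm2, with 41 of 50 genes below 0 (median -0.92, or -0.51 in mouse D580 and -0.45 in mouse D648). In it 8 genes were called lower and 2 higher. The stretch from Ddost to Cela2a had 44 of 50 genes below 0 (median -0.54), with 11 called lower and 0 higher. The stretch from Tnfrsf1b to Zfp534 had 44 of 50 above 0 (median 0.62), but 0 were called higher and 1 was called lower. These values describe RNA levels, and DNA copy number was not measured here.

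**Figure D5:**
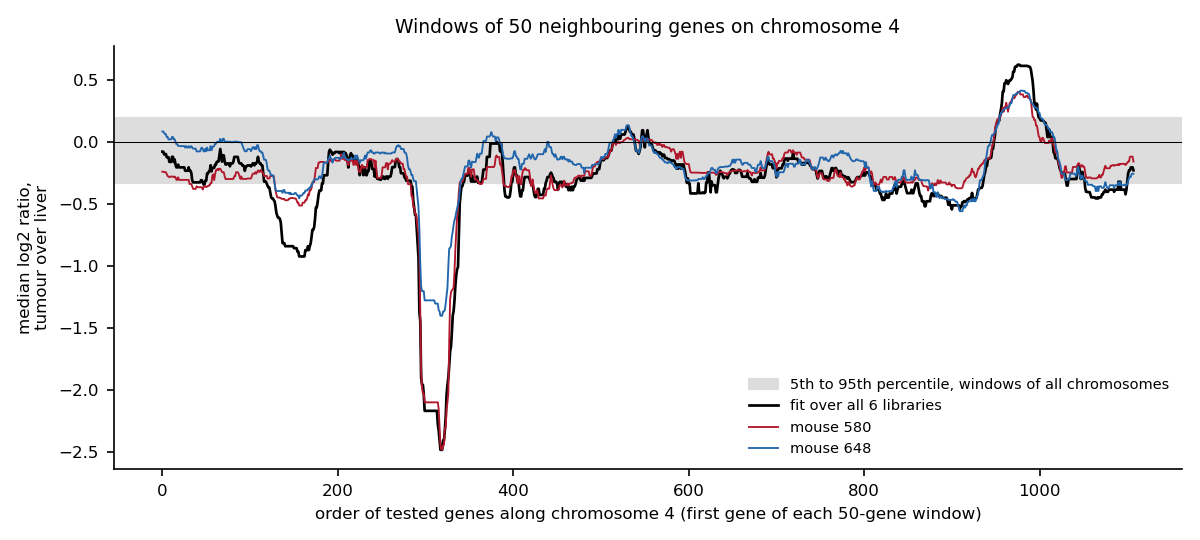
Median within-mouse log2 ratio in windows of 50 tested genes in gene order along chromosome 4 (coloured lines, 1 per mouse) and median log2 fold change of the fit over 6 libraries (black line), with the 5th to 95th percentile of such windows over all chromosomes as a band. The lowest window of the fit, at -2.48, spans the major urinary protein genes.

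None of 16 housekeeping genes passed edgeR's test at an adjusted p under 0.05. With an unadjusted p under 0.05 there were 5, DESeq2 called 3 and edgeR with a mouse block called 3. Their median was -0.07 (0.46 with scaling by library size alone), and their sum was 3469.9 and 3695 CPM in the livers and 3007 and 3542 in the tumours. Of 43 cytosolic ribosomal protein genes 1 fell, Rps2 (2 with a mouse block, and 0 without any 1 of the KAP1-deleted livers and tumours). Of 22 KAP1 partners and heterochromatin genes 1 rose, Uhrf1 (0 without KAP1-deleted liver 1 or without tumour 1).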

How the data were processed

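RNA sequencing of liver and tumour tissue is given as deposited counts, 1 table per library, with whole reads summed by Ensembl gene. TopHat and HTSeq 0.6.1 on mm9 produced them, per the submitters' processing notes. The version of TopHat, the annotation and the strand setting are not stated there. Per the labels' protocols, total RNA went into a stranded TruSeq kit, and the extraction text speaks of cell lines although each sample is labelled as tissue. Every library carries the same batch label.

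From these counts, reads outside genes were dropped (20.9% to 27.6% of counted reads in livers, 36.7% and 33.1% in tumours). The test was edgeR 4.0.16 (R 4.3.3): filterByExpr (minimum count 10, minimum total 15), TMM scaling, 1 mean per group over all 6 libraries, robust quasi-likelihood fit with 3 residual degrees of freedom, and a two-sided p adjusted by Benjamini-Hochberg over 17558 genes, called under 0.05. The common biological coefficient of variation was 0.23. The SE is the log2 fold change divided by the square root of F. Symbols came from the GRCm38 annotation by Ensembl identifier (32919 of 37991 genes), whose build differs from mm9, so it was used for names, gene order and shared 31-base words only. Within-mouse ratios add 0.5 CPM. Intervals of count ratios are exact at 95% and, like the floor of 3 counts, cover counting error only.

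The mouse codes in the labels pair each tumour with a liver. Their deviations from the group means correlated with r = 0.185 across genes, which is a single value for 2 pairs. The mouse was not in the reported model, and most list counts and named genes whose call a mouse block changes carry that value too. Among list counts given above without it, the block called 35 mitosis, 14 pericentral and 10 Wnt genes higher. It called 12 periportal, 14 major urinary protein and 3 imprinted genes lower. Other alternatives were DESeq2 1.42.0 (size factors and test), limma 3.58.1 (voom), upper-quartile scaling, library size alone, stricter and no filters, removal of the 20 most abundant genes, only the 4 libraries of the pairs, and each library left out.

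Named genes are Trim28 and Alb, the 12 highest and 12 lowest called log2 fold changes with a mean of at least 1 CPM, the 8 largest rises and 8 largest falls in CPM, up to 8 genes with few or no reads in a tissue, 8 genes per direction that differ most between mice, up to 6 per gene list by adjusted p, and list members whose role is described. The 12 highest and 12 lowest were also required to show no overlap between the tumours and the KAP1-deleted livers. Genes that lose their call without a library are given with that p. Genes of this rule that are not described were left out for length. The 51 gene lists (1152 genes) and the genes compared were chosen with earlier results of these data known. The alternative on chromosome 4 was chosen after seeing the data. Promoter sequences are RefSeq's on GRCm38.p6, with the first entry taken for 4163 of 27025 symbols that have several.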

Additional observations from a re-analysis of the deposited data

Results flagged for a closer look

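Reads that fell in no annotated gene are outside the comparisons. They made up 35.0% of the counted reads in tumour 1 and 31.3% in tumour 2, above the 18.0% to 25.2% of the 4 liver libraries. Their sequences are not part of the deposited counts used here, and the part of this difference in the gene results was not tested.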

How the results depend on the processing

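The reported fit gave 842 higher and 1165 lower genes, 42.0% of the calls higher. Library size alone gave 4317 and 520 (89.2% higher), no filter on low counts 1563 and 2256, and a mean of at least 5 CPM 485 and 743. The mouse as a replicate block gave 1571 and 2318 with all 6 libraries and 2055 and 2421 with the 4 paired ones, on 1 residual degree of freedom. Leaving out 1 library gave 295 to 1093 higher and 265 to 1684 lower genes, with 64.0% of the calls higher without tumour 1. Upper-quartile scaling gave 970 and 896 (52.0% higher). DESeq2 size factors, the DESeq2 and voom tests, the 4 libraries alone and the removal of the 20 most abundant genes stayed within 1.5 times of both counts. Of 336 named genes 223 were called, and none of these reversed under any alternative. They lost the call in 52 with library size alone, 5 with the block on 6 libraries, 105 and 124 without KAP1-deleted livers 1 and 2, and 128 and 69 without tumours 1 and 2, where the lone library is assumed to vary like the other groups. With a limit of 10 counts in place of 3, 58 genes (26) had few or no reads in the livers and 5 (2) in the tumours. Over all chromosomes, the lowest and highest window medians were -3.70 and 1.04 with 25 genes and -1.01 and 0.34 with 100 genes, against -2.48 and 0.62 with 50. Apart from the changes by construction (fewer genes, samples or counts), the cause was not tested. With 2 libraries per group, replication sets the precision for abundant genes, while mitosis genes under 1 CPM in the livers also carry counting error.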
